A study of Mus musculus with 27 samples.

Results

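The Endothelium cells of mouse gastruloids were taken as the cells of Leiden cluster 11 in the deposited annotation of single gastruloid cells, which comprised 62 of 4637 gastruloid cells (1.34%) and 62 of the 8784 cells of the whole series. All 62 cells carry a single annotation, deposited as Haemogenic and placed in the mesoderm. The name Endothelium is that of the study and was matched to the cluster by the equal number of cells. Endothelium lines blood vessels and arises from mesoderm, and haemogenic endothelium is the specialised endothelium from which the first blood stem and progenitor cells emerge, so both names point to the same branch of the mesoderm. Etv2, which encodes a transcription factor that starts the blood and vessel programme, Kdr, which encodes a receptor for VEGF, and Cdh5 and Pecam1, which encode junction proteins of vessel walls, are classical markers of this branch. The tables used here hold values per cell and none per gene, so the name was not checked against these markers.

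Gastruloids are aggregates of mouse embryonic stem cells (mESCs) that elongate and form derivatives of all germ layers after a pulse of Wnt activation. They were grown from mESCs of the B6 line, a hybrid of 129S1/SvImJ and C57BL/6, after pre-culture in ESLIF or 2i medium. ESLIF is a serum medium with leukaemia inhibitory factor. The 2i medium is serum-free and holds the same factor together with inhibitors of GSK3 and MEK. Cells of condition 1 stayed in ESLIF throughout. Those of condition 5 had a 48 h pulse of 2i before a last 48 h in ESLIF, and in condition 6 both steps were shortened to 24 h. For each condition, 5 single gastruloids were dissociated, and each filled 1 plate of 384 wells for CEL-seq2, a method that counts the 3′ ends of transcripts in single sorted cells. Gastruloid and plate therefore cannot be told apart. All gastruloids come from 1 cell line, and a gastruloid lacks the extra-embryonic tissues that surround the embryo.

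The 15 gastruloids contributed 261 to 348 cells each, with medians of 7109.5 to 12135.5 counts and 3743 to 5044.5 genes per cell. The gastruloid was the replicate in all tests, and the names 1A to 6E are those of the deposited table, in which the digit gives the condition. The labels do not say whether the gastruloids of a condition come from separate pre-cultures. The tests therefore measure spread between gastruloids, and a difference between pre-culture batches cannot be told apart from one between conditions. Plates share the same set of well barcodes. The 62 Endothelium cells carried 58 different well numbers, of which 4 occurred on 2 plates.

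Endothelium cells were found almost entirely in gastruloids from mESCs with a 2i pulse. Of the 62 cells, 30 came from condition 5, 31 from condition 6 and 1 from condition 1. They were present in 5 of 5 gastruloids of condition 5 and in 5 of 5 of condition 6, but in 1 of 5 gastruloids of condition 1.

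In condition 1, gastruloids 1A, 1B, 1C and 1D held 0 Endothelium cells of 309, 305, 298 and 302 cells, respectively, and 1E held 1 of 315. A count of 0, taken to allow 3 cells, gives a share of up to 0.971% in 1A and up to 1.01% in 1C, which mark the range over these 4 gastruloids. The 95% Wilson intervals drawn in the figure reach higher, to 1.23% in 1A and 1.27% in 1C. The share in 1E was 0.317% (95% Wilson interval 0.0561 to 1.78%). In condition 5, the numbers were 7 of 316 cells in 5A (2.22%), 5 of 348 in 5B (1.44%), 3 of 261 in 5C (1.15%), 8 of 298 in 5D (2.68%) and 7 of 309 in 5E (2.27%). The highest gastruloid of condition 5 thus held 8 cells and the lowest 3, and all 5 lay above the 1 cell of 1E. In condition 6, the numbers were 9 of 318 cells in 6A (2.83%), 7 of 296 in 6B (2.36%), 2 of 321 in 6C (0.623%), 4 of 316 in 6D (1.27%) and 9 of 325 in 6E (2.77%). Gastruloid 6C was the lowest of those with a 2i pulse, with an interval of 0.171 to 2.24%. The interval of every gastruloid of conditions 5 and 6 overlaps that of 1E. Those of 5A, 5B, 5C, 5E, 6B, 6C and 6D also overlap the intervals of 1A, 1B, 1C and 1D. Only those of 5D, 6A and 6E lie above the intervals of 1A, 1B, 1C and 1D. Intervals and limits cover counting error only.

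**Figure D1:**
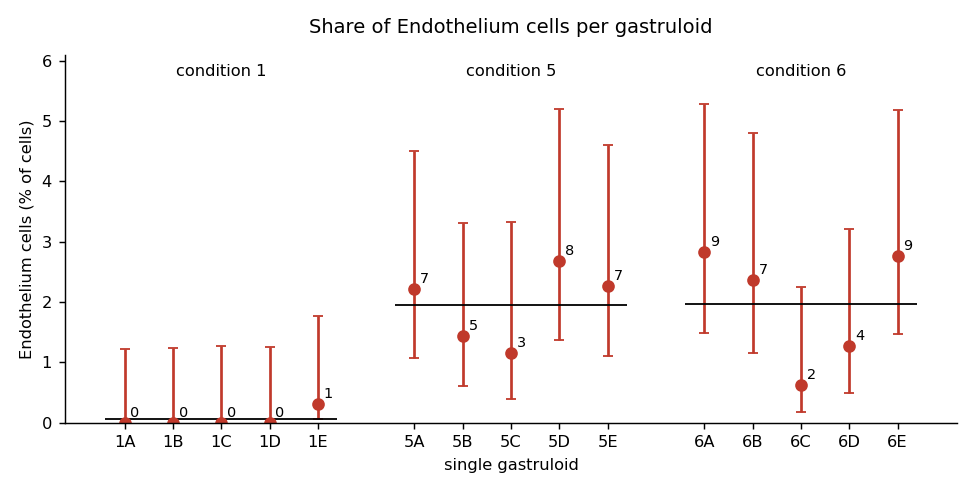
Share of Endothelium cells in percent of all cells (y axis) in each of 15 single gastruloids (x axis), grouped by pre-culture condition. Points are single gastruloids with 95% Wilson intervals, numbers beside them are Endothelium cells and black lines are the means of 5 gastruloids. The 10 gastruloids of conditions 5 and 6 sit between 0.623% and 2.83%, all above 1E with 0.317%.

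Averaged over 5 gastruloids each, Endothelium took 0.0635 ± 0.142% (SD) of the cells in condition 1. With the longer pulse of condition 5 this rose to 1.95 ± 0.635%, and with the shorter pulse of condition 6 to 1.97 ± 0.980%. Every gastruloid of conditions 5 and 6 had a higher share than every gastruloid of condition 1. The difference to condition 1 was 1.89 percentage points for condition 5 and 1.91 points for condition 6 (Wilcoxon rank-sum test, two-sided and exact, p = 0.00794 each, the smallest that 5 against 5 allows, and p = 0.0238 each after multiplication by 3 for the pairs of conditions). Conditions 5 and 6 did not differ beyond their spread, with a difference of 0.020 points (the same exact test, p = 0.690).

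Gastruloids of condition 1 also held fewer mesoderm cells, with 736 mesoderm cells against 1162 in condition 5 and 1208 in condition 6. Endothelium cells were therefore also counted per mesoderm cell. This mesoderm is the deposited germ layer of Somite, Early Somite, Presomitic Mesoderm, Differentiation Front and Endothelium cells, and it leaves out Allantois cells. Counted per mesoderm cell, condition 1 had 0.124 ± 0.278% (SD, n = 5), whereas condition 5 reached 2.58 ± 0.862% and condition 6 reached 2.61 ± 1.32%. The highest share in condition 1 was 0.621% in 1E, and the lowest in the pulsed gastruloids was 0.749% in 6C. The groups did not overlap here either, and the exact rank-sum test gave p = 0.00794 for either pair with condition 1 (0.0238 after correction). The separation rests on counts of 0 over few cells. A count of 0 allows up to 7.69% of the 39 mesoderm cells of 1D, which is above the highest pulsed share of 3.67% in 6E, and from 1.45 to 2.05% in 1A, 1B and 1C. Depth moved with the conditions, with a median over all cells of 8639 counts in condition 1, 9238.5 in condition 5 and 9437 in condition 6. The gastruloid medians of 7109.5 to 10467 counts in condition 1 overlapped those of 7537 to 12135.5 in conditions 5 and 6, and the part of depth in the number of Endothelium cells was not tested.

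On the deposited UMAP, the Endothelium cells formed an island of their own. For each cell the 15 nearest cells on the UMAP coordinates were taken as its neighbours. Of the 62 cells, 61 had 15 of 15 neighbours in the Endothelium cluster and 1 had none. Endothelium cells therefore held 98.4% of all 930 neighbours, while they make up 1.34% of the gastruloid cells. The remaining neighbours were 13 Somite cells, 1 Presomitic Mesoderm cell and 1 Differentiation Front cell. Somites are the blocks of mesoderm that give rise to vertebrae, muscle and dermis, presomitic mesoderm is the tissue from which they segment, and the differentiation front is the border between both. Since the UMAP and the clusters were built from the same transcripts, these shares describe the map and were not tested.

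All of these neighbours outside the cluster belonged to 1 cell of gastruloid 5D. This cell had 458 counts and 426 genes, the lowest counts of all Endothelium cells, and a mitochondrial share of 4.98%. It lay among Somite cells although it carried the Endothelium label. In the opposite direction, 16 Somite cells, 1 Presomitic Mesoderm cell and 1 Differentiation Front cell had an Endothelium cell among their 15 neighbours, each with 1 such neighbour. No cell of any other type had one. The median position of the Somite cells was also the nearest to that of the Endothelium island, at 6.52 units of the UMAP, followed by Early Somite cells at 8.35 units, and the Allantois cells, the extra-embryonic mesoderm in which vessels also form in the embryo, lay at 13.6 units. Distances on a UMAP are not to scale over long ranges.

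**Figure D2:**
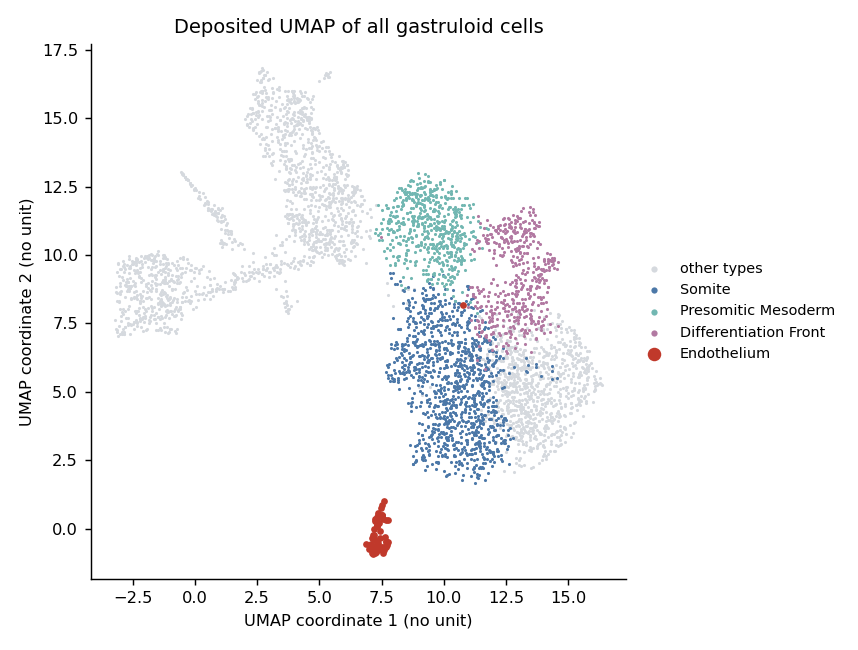
Deposited UMAP coordinates without unit (both axes) of 4637 gastruloid cells, 1 point per cell, with Endothelium in red and the 3 cell types that supply its other neighbours in colour. The Endothelium island at the bottom holds 61 of 62 cells, and the remaining cell lies inside the Somite cells.

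Within the island, cells of the same gastruloid lay near each other somewhat more often than in a random mixture, a description that was not tested. Among the 915 Endothelium neighbours of the 61 cells, 13.4% came from the same gastruloid, where a random mixture of the Endothelium cells would give 9.65%. Neighbours of the same condition made up 49.0%, against 47.6% in a random mixture. The share from the same gastruloid was 17.4% with the 5 nearest cells and 10.8% with the 30 nearest. The table holds a second cluster column with 15 clusters, whose settings are not given in the sources used here. There, 1 cluster of 65 cells contained 62 of 62 Endothelium cells together with 3 Somite cells, which came from 5B, 5E and 6A. The membership of the Endothelium was thus the same in both columns but for these 3 cells.

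The called cell cycle phases of the pooled Endothelium cells differed from those of the pooled other cells. The table assigns each cell a score for S-phase transcripts, made during DNA replication, and a score for G2M transcripts, made before and during division. A cell was called G1 where both scores were below 0, a rule that held for 4637 of 4637 cells. In all, 28 Endothelium cells were called G1 (45.2%, 95% Wilson interval 33.4 to 57.5%), 20 were called S (32.3%, 22.0 to 44.6%) and 14 were called G2M (22.6%, 13.96 to 34.4%). These cells are pooled over gastruloids and conditions, so the intervals cover counting error only and not the spread between gastruloids. Of the 4575 other cells, 5.99% were called G1, 56.8% S and 37.2% G2M. Endothelium cells thus made up 9.27% of the 302 cells called G1, at 1.34% of all cells. Higher G1 shares were found in 2 other types, with 62 of 96 Allantois cells (64.6%) and 9 of 9 Neural Crest cells, the latter all from condition 1.

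In condition 5, the cells called G1 were 5 of 7 in 5A, 0 of 5 in 5B, 0 of 3 in 5C, 4 of 8 in 5D and 2 of 7 in 5E. In condition 6, they were 5 of 9 in 6A, 3 of 7 in 6B, 2 of 2 in 6C, 3 of 4 in 6D and 3 of 9 in 6E, and the single cell of 1E was also called G1. The share of G1 among Endothelium cells was above that of the other cells of the same gastruloid in 8 of the 10 gastruloids of conditions 5 and 6. The exceptions were 5B, where 4 of 5 cells were called G2M, and 5C, where 3 of 3 cells were called S. Among the other cells of the same 10 gastruloids, the G1 share ran from 4.14 to 8.28% with a median of 5.99%. The wider range among Endothelium cells rests on 2 to 9 cells per gastruloid, where counting error alone is large. Whether it exceeds that error was not tested.

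**Figure D3:**
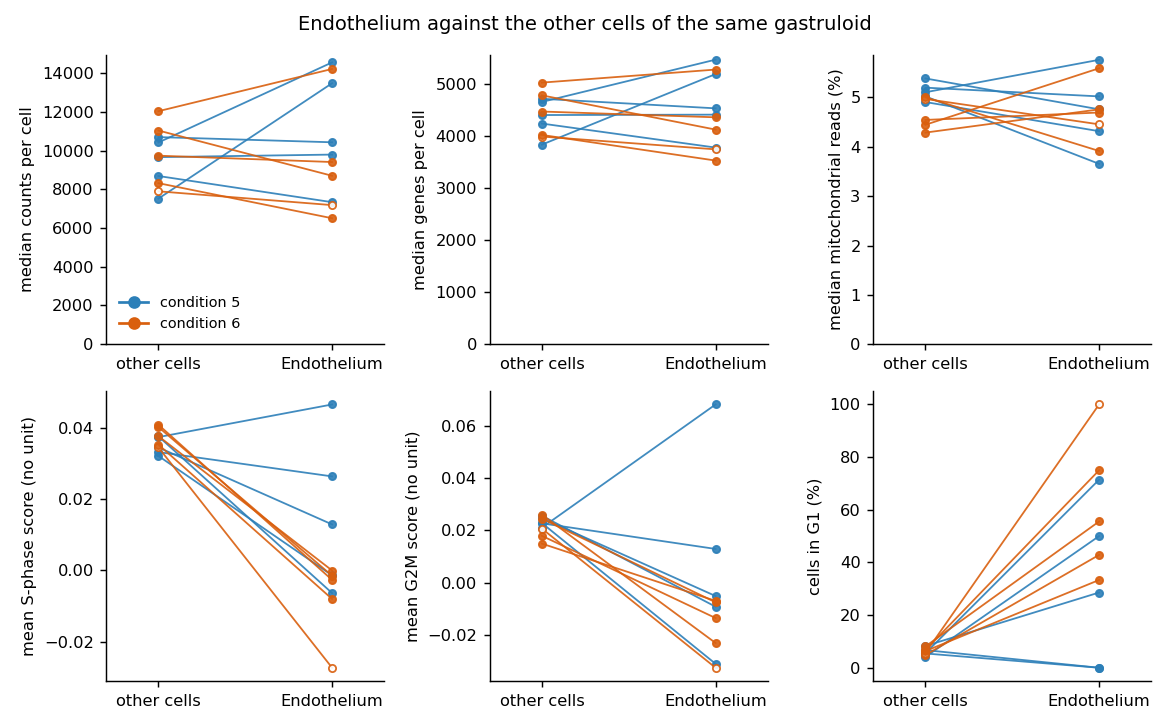
Values of the other cells (left of each panel) and of the Endothelium cells (right) in the 10 gastruloids of conditions 5 (blue) and 6 (orange), with lines joining the same gastruloid. Panels show median counts, median genes and median mitochondrial percentage per cell, mean S-phase and G2M scores without unit, and the percentage of cells in G1, and open points mark 6C with 2 Endothelium cells. Lines cross in the upper panels, whereas the G1 share is higher in Endothelium in 8 of 10 gastruloids.

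For the tests, differences between the Endothelium cells and all other cells were taken within each of the 9 gastruloids of conditions 5 and 6 with at least 3 Endothelium cells, which leaves out 6C and 1E. The G1 share was higher in Endothelium cells by 33.4 ± 27.3 percentage points (SD, n = 9 gastruloids, exact two-sided sign-flip test, p = 0.0156, Benjamini-Hochberg adjusted over 6 measures p = 0.0469), with a positive difference in 7 of 9 gastruloids. With 9 gastruloids the smallest p of this test is 0.00391. The clusters were built after the authors had regressed out the phase, the counts and the mitochondrial percentage, but the scores come from transcripts of the same cells, so the p-values set the size of a difference against its spread over gastruloids and are not evidence from an independent readout. Leaving out either 5B or 5C kept the adjusted p at 0.0469. Without 5A, 5D, 5E, 6A, 6B, 6D or 6E the adjusted p was 0.0938 in each case and the difference was no longer called, while the differences without 1 gastruloid ranged from 29.1 to 38.4 points.

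The S-phase score of the Endothelium cells was lower than that of the other cells. The mean score per gastruloid ran from -0.0080 in 6D to 0.0466 in 5C, with a median of -0.0014 over the 9 gastruloids, against 0.0322 to 0.0409 among the other cells of the 10 gastruloids. Gastruloid 5C alone lay above its other cells. The score fell by 0.0293 ± 0.0191 (SD, n = 9, exact sign-flip test, p = 0.0117, adjusted p = 0.0469) and was lower in 8 of 9 gastruloids. Without any of the 7 gastruloids named above, the adjusted p was again 0.0938, with differences from -0.0341 to -0.0274 over all gastruloids left out in turn.

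The G2M score did not pass the test. Its mean per gastruloid ran from -0.0311 in 5A to 0.0683 in 5B, with a median of -0.0075 over the 9 gastruloids, against 0.0150 to 0.0260 among the other cells. It was lower in 8 of 9 gastruloids, with a mean difference of -0.0240 ± 0.0297 (SD, n = 9, the same exact test, p = 0.0508, adjusted p = 0.102). Gastruloid 5B decides this value, since without it the difference was -0.0329 and was called (exact sign-flip test, adjusted p = 0.0469). The 5 Endothelium cells of 5B reached a G2M score of 0.129, the highest of all Endothelium cells, and none of them scored below 0.0127.

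**Figure D4:**
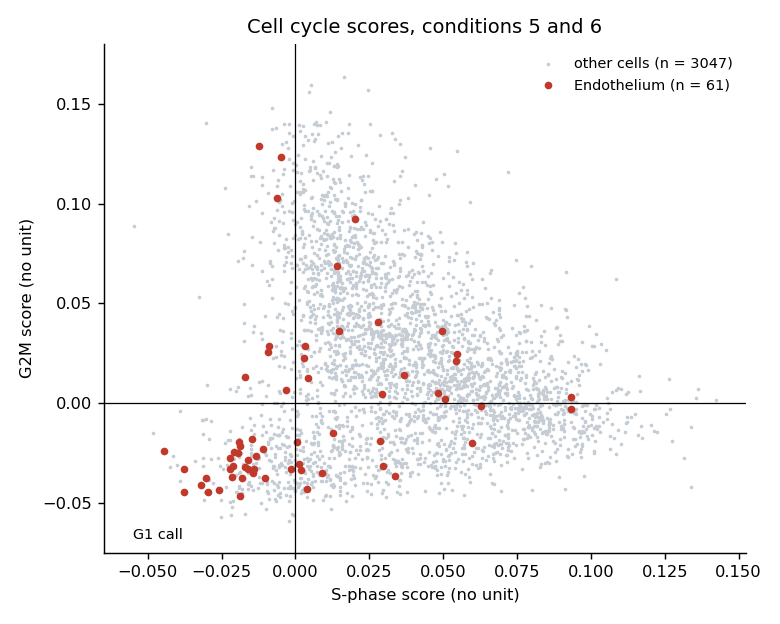
S-phase score (x axis) and G2M score (y axis), both without unit, of 61 Endothelium cells (red) and 3047 other cells (grey) of conditions 5 and 6. Lines mark 0, and cells below 0 on both axes are called G1. A group of 27 Endothelium cells lies in the lower left field, which also holds 189 of the other cells (6.20%).

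Single cells show how the scores combine. In conditions 5 and 6, 34 of 61 Endothelium cells had an S-phase score below 0 (55.7%), compared to 10.8% of the other cells, and 39 had a G2M score below 0 (63.9%), compared to 35.1%. The Endothelium cells called G1 had a mean S-phase score of -0.0210 and a mean G2M score of -0.0323, and the other cells called G1 had -0.0129 and -0.0303. The higher score lay within 0.01 of 0 in 7 of the 61 Endothelium cells (11.5%) and in 7.19% of the other cells. When G1 was called with both scores under -0.01, 42.6% of the Endothelium cells and 2.82% of the other cells were in G1, and with both scores under 0.01 the values were 54.1% and 10.0%. At this last cut the difference within gastruloids, 37.9 points, was no longer called (exact sign-flip test, adjusted p = 0.0586). Among the 34 Endothelium cells not in G1, 58.8% were called S, which is close to the 61.6% of the other cells and above the 38.7% of the Somite cells. This last comparison is over pooled cells and was not tested.

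Calls of G1 were more frequent in cells with few counts, so the G1 share was compared at similar depth. The cells of conditions 5 and 6 were divided into 3 classes of equal size by their counts, with borders at 7349 and 11537 counts. In the class with the fewest counts, 10 of 20 Endothelium cells were called G1 (50.0%, 95% Wilson interval 29.9 to 70.1%) compared to 12.5% of the other cells. In the middle class the numbers were 10 of 17 (58.8%, 36.0 to 78.4%) and 4.91%, and in the class with the most counts they were 7 of 24 (29.2%, 14.9 to 49.2%) and 1.19%. The pooled G1 share of Endothelium cells was above that of other cells in all 3 classes. These cells are pooled over gastruloids that differ in their G1 share, so the intervals cover counting error only and are no test. With the other cells of each gastruloid weighted to the count classes of its Endothelium cells, the difference in G1 share was 33.7 points and that of the S-phase score was -0.0276 (exact sign-flip test, adjusted p = 0.0313 each). The G2M score was called under this weighting, with a difference of -0.0274 (the same exact test, adjusted p = 0.0313).

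The comparison was repeated against the 3 cell types that supply the neighbours outside the cluster, a choice made after the data had been seen. The G1 share of Endothelium cells was higher than that of Somite cells by 34.2 ± 26.5 points, than that of Presomitic Mesoderm cells by 37.0 ± 28.3 points and than that of Differentiation Front cells by 33.3 ± 28.3 points (SD, n = 9 gastruloids each, exact sign-flip test, p = 0.0156 each, adjusted p = 0.0469 each over the 18 tests of 3 types and 6 measures). The scores differed between the types. Against Somite cells, which had the highest G2M scores of the 3 types, the difference in the G2M score was -0.0538 ± 0.0429 (SD, adjusted p = 0.0469, exact sign-flip test, n = 9) and the S-phase score showed a difference of -0.0171 ± 0.0176 that was not called (adjusted p = 0.0904). Against Presomitic Mesoderm and Differentiation Front cells, the S-phase score was lower, with mean differences of -0.0280 and -0.0286 (adjusted p = 0.0469 each, the same exact test), and the G2M score differed by -0.0160 and -0.0118 without being called (adjusted p = 0.299 and 0.523).

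**Figure D5:**
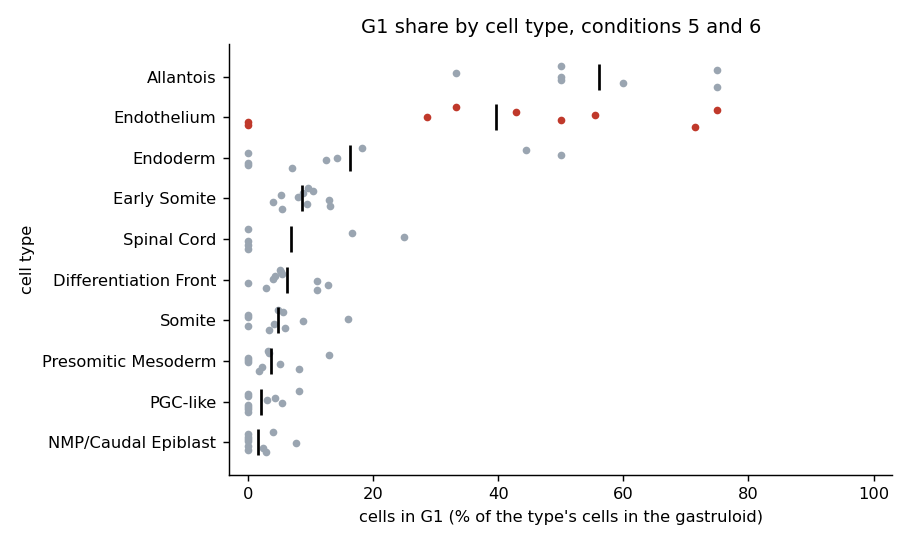
Percentage of cells called G1 (x axis) by cell type (y axis) in the gastruloids of conditions 5 and 6. Points are gastruloids with at least 3 cells of the type and black bars are means. Endothelium (red, 9 gastruloids) ranges from 0 to 75.0% with a median of 42.9%, and Allantois is the other type with a median of that size, at 50.0%. Endoderm overlaps both, with a range of 0 to 50.0% and a median of 12.5% over 9 gastruloids.

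Among all cell types of a gastruloid with at least 3 cells, Endothelium had the highest G1 share in 3 of 9 gastruloids, and in 6 of 9 when Allantois cells were left out. It had the lowest mean S-phase score in 3 of 9 gastruloids with and in 7 of 9 without Allantois cells. The Allantois cells of conditions 5 and 6 had a G1 share of 61.5% (24 of 39 cells, 95% Wilson interval 45.9 to 75.1%), compared to 44.3% of the Endothelium cells (27 of 61, 32.5 to 56.7%). Allantois cells differ in their quality measures, with a median of 0.394% mitochondrial reads and 5465 counts, whereas Endothelium cells had 4.61% and 9894 counts. Of the Allantois cells, 38 of 39 had under 1% mitochondrial reads and none of the 61 Endothelium cells did. The low values of the Allantois cells were not found in the Endothelium cells, and leaving Allantois cells out of the comparison gave a difference in G1 share of 34.2 points (exact sign-flip test, adjusted p = 0.0469).

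In counts, genes and mitochondrial reads, Endothelium cells lay within the range of the other cells. The 62 cells had a median of 9937 counts (quartiles 6531.5 and 13996, lowest 458, highest 20072) and a median of 4504.5 genes (lowest 426, highest 6270), and the other cells had medians of 9094 counts and 4315 genes. Their highest count was below the 39777 counts of the highest other cell. Of the 62 cells, 3 had fewer than 1000 counts.

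Per gastruloid with at least 3 cells, the median counts of Endothelium cells ran from 6507 in 6E to 14558 in 5C, with a median of 9795.5 over 9 gastruloids, and the groups overlap, since the other cells had 7521 to 12037. They were higher than in the other cells in 4 of 9 gastruloids. The mean difference was 0.06 ± 0.40 on the log2 scale (SD, n = 9, exact sign-flip test, p = 0.668, adjusted p = 0.802), and that of genes per cell was 0.0088 ± 0.21 (the same exact test, p = 0.879, adjusted p = 0.879). The spread was widest in 5B, where Endothelium cells had a median of 13481 counts against 7521 in the other cells, a log2 difference of 0.84. At a given number of counts, fewer genes were detected in Endothelium cells in 7 of 9 gastruloids. The mean difference from a straight line of log2 genes on log2 counts, fitted to the other cells of the gastruloid, was -0.035 (exact sign-flip test, p = 0.0508) and was not called.

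The median mitochondrial percentage of Endothelium cells per gastruloid ran from 3.66% in 5B to 5.76% in 5C, with a median of 4.76% over 9 gastruloids, compared to 4.29 to 5.39% in the other cells. Endothelium was higher in 4 gastruloids and lower in 5, with a mean difference of -0.158 ± 0.836 percentage points (SD, n = 9, exact sign-flip test, p = 0.570, adjusted p = 0.802). A single Endothelium cell exceeded 10%, at 11.6%, in 5C.

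Counts per cell differed with the called phase among the pooled Endothelium cells. In conditions 5 and 6, the 27 cells called G1 had a median of 8509 counts and 4054 genes, the 20 cells called S had 10880 counts and 4693.5 genes, and the 14 cells called G2M had 12427 counts and 4966.5 genes. Other cells had medians of 5993, 8940 and 11188 counts in G1, S and G2M. The order among Endothelium cells lies partly between gastruloids, since 5B and 5C had high medians of 13481 and 14558 counts and held none of the cells called G1. Without them, a choice made after the data had been seen, the medians were 8509 counts in G1, 10466 in the 16 cells in S and 10357 in the 10 cells in G2M, so that G1 remained lowest and S and G2M were close. These pooled medians were not tested.

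Endothelium cells of the 2 pulsed conditions were also compared with each other, and none of the 6 measures passed the test between conditions 5 and 6. The mean G1 share per gastruloid was 30 ± 31.3% in condition 5 (n = 5) and 51.7 ± 18.01% in condition 6 (n = 4, without 6C), a difference of 21.7 points (exact two-sided permutation test, p = 0.254, adjusted over 6 measures p = 0.543). The mean S-phase score was 0.0156 ± 0.0216 in condition 5 and -0.0031 ± 0.0035 in condition 6 (SD, n = 5 and 4, the same exact test, p = 0.127, adjusted p = 0.543), and the G2M score was 0.0072 ± 0.0376 and -0.0128 ± 0.0075 (SD, n = 5 and 4, the same exact test, p = 0.413, adjusted p = 0.543). Gastruloids of condition 5 varied more in both scores, with 5B and 5C at the upper ends. Counts, genes and the mitochondrial percentage gave exact p-values of 0.452, 0.444 and 0.952 (adjusted 0.543, 0.543 and 0.952). The difference in G1 share was 6.42 points with at least 5 Endothelium cells per gastruloid and 31.3 points when 6C was included, neither of them called, so its size is poorly fixed by these gastruloids.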

How the data were processed

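The authors processed CEL-seq2 reads with the SingleCellMultiOmics pipeline. The submitters' processing notes name cutadapt 4.1, STAR 2.5.3a, SAMtools 1.15.1 and GRCm38, masked at strain differences. In Scanpy, cells with few reads or genes or a high mitochondrial share were removed, counts, mitochondrial percentage and phase were regressed out, and UMAP and Leiden clusters were built. The deposited counts and genes per cell are whole numbers without normalization. Mitochondrial reads were deposited as a fraction of a cell's reads, printed here as percent. For the S-phase and G2M score, deposited without a unit, the scoring method is not given in the sources used here. The mESC table served to count cells, and the sequencing reports were not used. Doublets were not tested. The labels give the 5 gastruloids of a condition as biological replicates.

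Shares were compared with exact rank-sum tests (p times 3), differences within gastruloids with exact sign-flip tests and conditions 5 and 6 with exact permutation tests, each over 6 measures with Benjamini-Hochberg adjustment and called under 0.05. Counts and genes were summarised as log2 of medians, mitochondrial percentages as medians, scores as means. At least 3 Endothelium cells per gastruloid were required. Wilson intervals are at 95% and cover counting error only, and a count of 0 allows 3 cells. Alternatives were another minimum of cells or of counts (1000), a maximum of mitochondrial reads (10%), other reference cells, other summaries, the replicate number as a block and gastruloids left out in turn. Tests were checked on simulated data. The members, measures and tests were chosen with earlier results of these data known. Since the tables hold no gene values, no gene was named by its level. Python 3.11.15, numpy 2.4.6, pandas 2.3.3, scipy 1.17.1 and matplotlib 3.10.9 were used.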

Additional observations from a re-analysis of the deposited data

Results flagged for a closer look

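The share of Endothelium cells in gastruloid 1E, 0.317%, stood apart from the other 4 gastruloids of condition 1, which held none. It rests on 1 cell of 315, and this cell had 12982 counts, 4.43% mitochondrial reads and a G1 call. Beside 4 values of 0, any count above 0 stands apart, and the interval of 1E overlaps those of the other 4 gastruloids. Of the 27 groups of gastruloids examined for a value far from the others, 1 was flagged. An assumed rate of 1 in 20 would give 1.35 groups.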

How the results depend on the processing

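The shares of Endothelium cells in conditions 5 and 6 stayed above condition 1 and past the threshold under each alternative tried except the replicate block. The replicate number shared by gastruloids pairs no animals or batches in the labels. Cell type deviations correlated over 0.1 in 7 of 15 same-numbered pairs and in 22 of 60 differently numbered pairs, with medians of -0.015 and -0.029. In 2 of 15 comparisons with the gastruloids of another condition, a gastruloid correlated best with its own number, and both were of 6D. With this block the differences of 1.89 and 1.91 points had an exact p of 0.0625 (0.188 after correction), the smallest for 5 pairs. It changed no other call. Without 1 gastruloid the differences ranged from 1.70 to 2.09 points (condition 5) and 1.69 to 2.24 (condition 6). Between conditions 6 and 5 the share turned to -0.039 points with the 3 Somite cells of the second cluster added, and ranged from -0.195 to 0.357 without 1 gastruloid.

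The calls for the S-phase score and the G1 share rest on few gastruloids. With at least 5 Endothelium cells they were -0.0327 and 34.0 points (exact sign-flip test, adjusted p = 0.0938 each), with equal weight to each cell type -0.0263 and 28.8 points (0.0586 each), the S-phase score against Somite cells was -0.0171, and the G1 share with both scores under 0.01 was 37.9 points. These were no longer called, and no direction changed. Without 1 gastruloid the S-phase difference ranged from -0.0341 to -0.0274 and the G1 difference from 29.1 to 38.4 points. The smallest p rises from 0.00391 with 9 gastruloids to 0.00781 with 8. The G2M difference was called with medians for means (-0.0283), against Somite cells (-0.0538) and with matched count classes (-0.0274), and ranged from -0.0329 to -0.0202 without 1 gastruloid.

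Uncalled measures changed sign. The log2 difference in counts was -0.032 against Somite cells and -0.0034 with matched count classes, and ranged from -0.036 to 0.11 without 1 gastruloid. That in genes was -0.0012 and -0.017 with at least 1 and 5 Endothelium cells, -0.021 under 10% mitochondrial reads, -0.035 at a given count, -0.040 against Somite and -0.0099 against Presomitic Mesoderm cells and -0.018 with matched classes, and ranged from -0.045 to 0.037 without 1 gastruloid. The mitochondrial difference was 0.0928 points with means, 0.224 with equal weights and 0.117 against Differentiation Front cells. Between conditions 6 and 5 it was -0.020, -0.705 and -0.228 points with at least 1 cell, with means and with 1000 counts, and ranged from -0.247 to 0.312 without 1 gastruloid. Adding condition 1 gave no value, since 1E holds 1 Endothelium cell. The alternatives against single cell types, with matched count classes, with other G1 cuts, without the cell apart on the UMAP and with the second cluster were chosen after seeing the data.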
